A study of Danio rerio with 1109 samples.

Results

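The zebrafish *engrailed* paralogs *en1a* (ENSDARG00000014321) and *en1b* (ENSDARG00000098730) were followed across 1109 single trunk cells of 48 hpf embryos, as 2 of the 32057 genes counted. They were taken by their identifiers. The study had already listed both among the genes most enriched in a fibroblast cluster of these same cells, so the choice was not blind to the data. Of the cells, 367 (*vegfc* plate 1) and 377 (*vegfc* plate 2) came from *vegfc:Gal4FF;UAS:GFP;kdrl:mCherry* embryos, in which Gal4 under *vegfc* control drives GFP and *kdrl* drives mCherry in endothelium, and 365 (the *pdgfra* plate) came from *pdgfra:mCit* embryos, in which *pdgfra* control drives mCitrine. The labels give no further allele or treatment for any group. The *vegfc* transgene is also active in arterial endothelium and hypochord. Trunks were pooled and partially dissociated before cells were sorted for GFP, mCherry or mCitrine, and the sort gate of a cell on the *vegfc* plates is not used here.

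The labels name no animal or pool for a cell, so cells do not count as replicates, and all comparisons are descriptions by plate without a test. All *pdgfra:mCit* cells were on 1 plate, so line and plate cannot be told apart. Cells had between 50045 and 782140 gene counts, with plate medians of 279923 to 315212. Each cell was put into a kind by marker genes, where at least 3 markers had to reach 20 raw counts and the share of markers at that level had to be above that of every other kind. Fibroblast-like cells with at least 3 of the 5 markers *itgbl1*, *ndnfl*, *sned1*, *pappab* and *lamb2* were called HM fibroblast-like, after the horizontal myoseptum (HM), the sheet of connective tissue that divides dorsal from ventral muscle. These 5 markers were picked in the study from these same cells, in the cluster that also yielded *en1a* and *en1b*, so the high share of *engrailed* cells in this kind is not independent evidence. The kinds were 113 HM fibroblast-like, 694 other fibroblast-like, 92 myeloid-like, 63 neural-like, 49 epithelial-like, 23 muscle-like, 20 endothelial-like, 7 hypochord-like and 5 xanthophore-like cells, and 43 cells stayed unassigned.

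Engrailed proteins are homeodomain transcription factors that act mainly as repressors and can work with Pbx cofactors. In the zebrafish trunk, Engrailed is known as a marker of muscle pioneers, the slow muscle cells at the HM that receive strong Hedgehog signal, of the medial fast fibres beside them and of an ascending class of inhibitory spinal interneurons. BMP signalling is known to limit *engrailed* expression in the myotome. The other paralog pair, listed in the gene table as *EN2* under 2 identifiers, was nearly absent, with 32 counts in 2 cells under ENSDARG00000026599 and 0 counts under ENSDARG00000038868.

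The counts of each paralog fell into a high group and a group under 20. *en1a* reached 20 counts in 203 cells and *en1b* in 243 cells, and 252 cells had at least one of them at this level. Below the threshold, 52 cells had 10 to 19 counts of *en1a* and 50 had 10 to 19 of *en1b*, with highest values of 19 and 18. Just above it the lowest values were 30 for *en1a* and 23 for *en1b*, and only 3 cells for each gene lay between 20 and 39. Of the 252 cells, 194 had both paralogs at 20 counts or more, 49 had *en1b* alone and 9 had *en1a* alone. The 2 paralogs were each other's most similar gene over all cells, with a Spearman correlation of CPM, the count scaled to the total of gene counts, of 0.67 on *vegfc* plate 1 (367 cells), 0.55 on *vegfc* plate 2 (377 cells) and 0.66 on the *pdgfra* plate (365 cells). With counts of either paralog under 20 set to 0, an alternative chosen after the data had been seen, it was 0.96, 0.89 and 0.80. In that setting 304 of 367, 310 of 377 and 243 of 365 cells were tied at 0 for both. These values thus mostly restate which cells passed the threshold, not how closely the levels followed each other.

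Counts under 20 were widespread and moved with well position. Among cells outside the fibroblast kinds with both paralogs under 20, the median of their summed counts was 8 in *vegfc* plate 1 (129 cells), 3 in *vegfc* plate 2 (155 cells) and 6.5 in the *pdgfra* plate (12 cells), and 0, 17 and 0 of these cells had no count at all. These low sums correlated with the *engrailed* counts of the other wells in the same row and column, with a Spearman correlation of 0.72, 0.61 and 0.89 in these plates. In fibroblast-like cells with both paralogs under 20 the same correlation was 0.60, 0.57 and 0.74, with a highest sum of 28 counts. Low counts were therefore not read as expression, and the correlations of the paralogs with each other, of genes with the summed level and of the genes most like each paralog were also computed with counts under 20 set to 0. Their part in the other results was not tested.

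**Figure D1:**
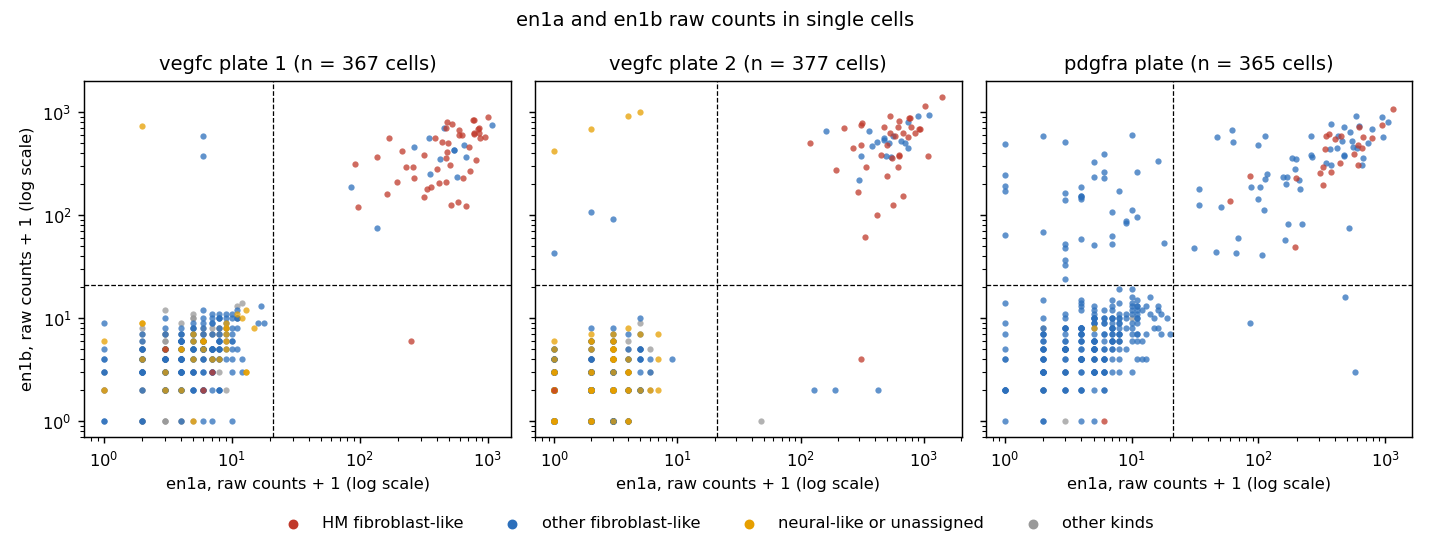
Raw counts of *en1a* (horizontal axis) and *en1b* (vertical axis) in each cell, both plus 1 on a log scale, with 1 panel per plate and 1 point per cell; dashed lines mark 20 counts and colours mark the cell kind. HM fibroblast-like cells lie almost all in the upper right with both paralogs, whereas the upper left, *en1b* alone, holds 39 cells of the *pdgfra* plate, 3 of *vegfc* plate 1 and 7 of *vegfc* plate 2.

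HM fibroblast-like cells carried both paralogs at similar counts. Both reached the threshold in 46 of 50 cells on *vegfc* plate 1 (92.0%, exact 95% interval 80.8 to 97.8%), 37 of 39 on *vegfc* plate 2 (94.9%, 82.7 to 99.4%) and 23 of 24 of the *pdgfra* plate (95.8%, 78.9 to 99.9%). In the 108 HM fibroblast-like cells with *en1a* at the threshold its counts ranged from 59 through a median of 501 to 1416, and in the 106 with *en1b* they ranged from 48 through 450.5 to 1388. The summed level over the plates was 2093 ± 187 CPM for *en1a* and 1875 ± 237 CPM for *en1b* (SD, n = 3 plates). The plates come from different lines, so an SD over plates also holds any difference between lines. No HM fibroblast-like cell had *en1b* alone, which allows a share of up to 2.65% of these 113 cells by a limit of 3 counts (exact 95% interval up to 3.21%), and 2 had *en1a* alone, with 248 counts of *en1a* against 5 of *en1b* in *vegfc* plate 1 and 311 against 3 in *vegfc* plate 2.

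A smaller share of other fibroblast-like cells had the paralogs, and most of those with *en1b* alone were on the *pdgfra* plate. Both paralogs reached the threshold in 13 of 187 cells on *vegfc* plate 1 (6.95%, 3.75 to 11.6%), 18 of 178 on *vegfc* plate 2 (10.1%, 6.10 to 15.5%) and 57 of 329 of the *pdgfra* plate (17.3%, 13.4 to 21.9%). *en1b* alone was found in 2 (1.07%, 0.130 to 3.81%), 3 (1.69%, 0.349 to 4.85%) and 39 (11.9%, 8.57 to 15.8%) of these cells. *en1a* alone was found in 0, 3 and 3 of them. Where the paralogs were present, other fibroblast-like cells were not uniformly low: over the 94 cells with *en1a* and the 132 with *en1b* at the threshold, the median was 368 counts for *en1a* and 314 for *en1b*. This kind is set by fewer than 3 HM markers only, not by position, so it can hold cells of the HM. In the study's antibody staining, *pdgfra:mCit* cells had Engrailed protein at the HM and not in other regions.

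The 44 other fibroblast-like cells with *en1b* alone had little *en1a*. Their *en1b* counts ranged from 23 through a median of 145.5 to 592, and their *en1a* counts from 0 through 3 to 17, a range that overlaps the low counts described above. In 40 of the 44 cells *en1a* was under 10 counts, and in 6 it was 0. In the 6 other fibroblast-like cells with *en1a* alone, *en1a* ranged from 85 through 305.5 to 574 counts and *en1b* from 1 through 1.5 to 15. Median depth was similar, at 248577 gene counts in the 39 cells of the *pdgfra* plate with *en1b* alone, 268826 in its 57 other fibroblast-like cells with both and 285578 in its 230 with neither.

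The *en1a* share of all *en1a* and *en1b* counts stayed close to an even split in HM fibroblast-like cells. It was 54.5% on *vegfc* plate 1 (exact 95% interval 54.0 to 55.0%), 52.0% in *vegfc* plate 2 (51.5 to 52.4%) and 51.9% in the *pdgfra* plate (51.3 to 52.6%), with a mean of 52.8 ± 1.48% (SD, n = 3 plates). In other fibroblast-like cells it was 49.99% (49.1 to 50.8%) and 51.0% (50.3 to 51.7%) in the *vegfc* plates, but 41.2% (40.8 to 41.7%) in the *pdgfra* plate. Intervals cover counting error only, and reads amplified by PCR without molecular identifiers are not independent molecules. Transcript lengths were not used here, so the share compares counts of the same gene between cells and does not say which paralog had more transcripts.

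The share varied widely from cell to cell. Over HM fibroblast-like cells with both paralogs at the threshold, it ran from 22.5 through a median of 54.0 to 84.9% in *vegfc* plate 1, from 19.2 through 51.9 to 84.6% in *vegfc* plate 2 and from 26.5 through 54.2 to 80.2% in the *pdgfra* plate. Within those cells the levels of *en1a* and *en1b* in CPM had a Spearman correlation of 0.50, 0.24 and 0.52 over 46, 37 and 23 cells. In other fibroblast-like cells of the *pdgfra* plate with at least 40 counts of the paralogs together, the median share was 32.9% over 96 cells, with 27 cells under 5%, and over the 57 of its other fibroblast-like cells with both paralogs it was 45.6%.

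**Figure D2:**
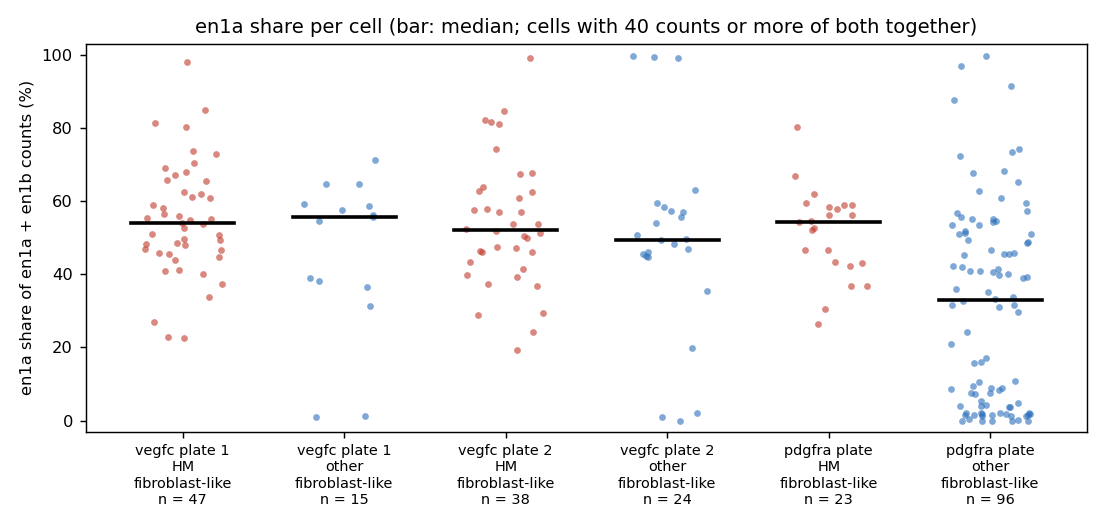
*en1a* share of the summed *en1a* and *en1b* counts (vertical axis, %) for each cell with at least 40 counts of both together, by plate and by kind, with the black bar at the median. HM fibroblast-like cells centre on 54.1, 52.2 and 54.2%, while 27 of the 96 other fibroblast-like cells of the *pdgfra* plate lie under 5%.

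Outside the fibroblast kinds, 6 cells reached the threshold and each had a single paralog. None of the endothelial-like, epithelial-like, myeloid-like, hypochord-like and xanthophore-like cells reached it for either gene. Of 63 neural-like cells, 3 had *en1b* alone, at 735, 997 and 913 counts against 1, 4 and 3 counts of *en1a*. A further 2 cells of *vegfc* plate 2 had 687 and 413 counts of *en1b* against 1 and 0 of *en1a*, and stayed unassigned because each had only 2 neural markers. Their *en1b* counts were thus within the range of HM fibroblast-like cells.

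These 5 cells (1 on *vegfc* plate 1, the other 4 on *vegfc* plate 2) had counts of several genes known from inhibitory neurons, though not of all that were looked up. The genes were looked up after the cells had been seen. *SLC6A5*, the neuronal glycine transporter, had 1398, 406, 742, 1357 and 324 counts in them, and reached 20 counts in 5 of the 60 other neural-like cells. *lhx1a*, *lhx5* and *PAX2*, transcription factor genes of spinal interneurons, reached the threshold in all 5 cells, and in 13, 10 and 6 of the 60 other neural-like cells. *SLC32A1*, the vesicular transporter of glycine and GABA, reached it in 4 of the 5 cells and in 6 of the 60. *GAD2*, a GABA synthesis gene, had 0, 30, 0, 0 and 88 counts in the 5 cells, and *pax2b* had 156, 0, 0, 98 and 234. *FOXD3*, a forkhead factor known from V1 interneurons in mouse, had 0, 336, 116, 205 and 224 counts in the 5 cells and reached 20 in none of the 60 others. *gfap* and *sox3*, genes of radial glia and progenitors, were at 4 counts or less in all 5 cells and reached 20 counts in 39 and 44 of the 60. *vegfc* was at 0 in all 5, and *pdgfra* had at most 3 counts.

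The remaining cell was muscle-like. In *vegfc* plate 2, 1 of 16 muscle-like cells had 47 counts of *en1a* and 0 of *en1b*. It had 1467 counts of *smyhc1*, the slow myosin heavy chain gene, against a median of 3 and a highest value of 2965 in the 22 other muscle-like cells, of which 6 had at least as many. It also had 2649 counts of *atp2a1*, a calcium pump of fast fibres, against a median of 2377.5, and 0 of *myod1*, against a median of 186.5. A single cell allows no statement on muscle pioneers.

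Next, genes were compared within each plate between fibroblast-like cells with both paralogs and those with neither, from summed counts scaled to CPM. A ratio is given as log2 after adding 1 CPM, and a gene was called where the ratio was at least 1 in size, the same way, in all 3 plates. The cells compared were 59 against 175 in *vegfc* plate 1, 55 against 155 in *vegfc* plate 2 and 80 against 231 in the *pdgfra* plate. HM fibroblast-like cells were 46, 37 and 23 of the cells with both. The study picked the HM markers in the cluster that also yielded the paralogs, so their differences here are not independent evidence. Apart from the paralogs, 287 of 18527 genes were higher (1.55%) and 1094 were lower (5.9%), and over all of these genes the median of the per-gene median ratio was -0.26.

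Genes of the HM and of Vegfc signalling were called most often. Of 11 members of that list, 9 were higher and none was lower, with a median ratio of 3.78 over the list. All 5 HM gate markers were among the 9, and the study chose much of this list on these cells. *vegfc*, the lymphangiogenic growth factor, had 273, 244 and 162 CPM in cells with both paralogs, against 23.3, 46.4 and 3.76 CPM in cells with neither (*vegfc* plates 1 and 2 and the *pdgfra* plate), and ratios of 3.49, 2.37 and 5.10. *ccbe1*, a secreted protein needed for Vegfc maturation, had 757, 619 and 430 CPM against 49.4, 79.4 and 26.8 CPM. *cxcl12a*, a chemokine that guides lymphatic precursors, had 944, 1387 and 866 CPM against 63.4, 295 and 58.2 CPM. *adamts14*, a Vegfc-processing protease, was called at low levels of 8.95 to 18.2 CPM against 0.0947 to 3.53 CPM. It reached 20 counts in only 3.39, 3.64 and 2.5% of cells with both, against 1.14, 0 and 2.16% of cells with neither, so these ratios rest on few cells. *adamts3*, the other protease, had ratios of -0.25, -0.52 and -0.03, and *svep1*, an extracellular matrix protein, had ratios of -0.70, 0.53 and 1.31.

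In other fibroblast-like cells alone, a comparison added after the data had been seen, with 13, 18 and 57 cells with both paralogs, 206 genes were higher and 1547 were lower. The same cut gave 287 higher and 1094 lower of 18527 genes in all fibroblast-like cells. A lower call thus stands out less in other fibroblast-like cells alone. *vegfc* had ratios of 3.36, 2.31 and 5.21 there, and *ccbe1* of 3.64, 2.82 and 3.86. Of the 32 list genes called in all fibroblast-like cells, 28 were called the same way there, and *gli1*, *meox2b*, *notum1a* and *sned1* were not. Of the other list genes, *wnt9a* was called higher there, and *disp1*, *foxd1*, *id2b*, *lef1*, *nkx3-2* and *tle5* were called lower. These comparisons share most cells with neither (172 of 175, 154 of 155 and 230 of 231), so the overlap of calls is not independent evidence. Cells with fewer than 3 HM markers also stayed in. On the *pdgfra* plate the median was 1 HM marker in other fibroblast-like cells with both and 0 in those with neither. *sned1* turned to -2.14 and -4.36 in the *vegfc* plates, with 3.37 in the *pdgfra* plate. It is a gate marker, and the gate had removed cells with 3 or more of these markers. In cells with both it was left at 1.60 and 0.485 CPM in the *vegfc* plates, so this turn is not read as a result. *svep1* had ratios of 1.36, -0.80 and 1.36.

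Hedgehog genes went in different directions. Of 13 members tested, 2 were higher and 1 was lower, with a median of 0.05 over the list. By the same cut, 1.55% of all genes were higher and 5.9% lower, so a count of 1 lower gene stands out little, whatever the size of its ratio. The row *GLI2*, a Hedgehog effector, was not among the 13. Its ratios of -3.20, -2.12 and -2.50 also meet the cut for lower. *hhip*, a Hedgehog target and inhibitor, had 1454, 1100 and 657 CPM in cells with both paralogs, against 239, 165 and 34.3 CPM in cells with neither. *gli1*, a transcriptional target and effector, was higher by smaller ratios of 1.04, 1.34 and 1.56. In other fibroblast-like cells alone *gli1* had ratios of -0.26, 1.14 and 1.38. The receptor gene *ptch1* had ratios of 2.03, 0.06 and 1.55 and was not called. *cdon*, a Hedgehog co-receptor, was lower, at 21.4, 26.1 and 59.7 CPM against 667, 504 and 696 CPM, whereas *boc*, its relative, had ratios of -0.04, -0.14 and 0.33.

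Of 18 BMP genes tested, 5 were lower, among them 4 ligand genes, and none was higher, with a median of -0.52. Over all genes, 5.9% were lower and 1.55% higher by the same cut. *bmp4* had 56.3, 162 and 43.1 CPM in cells with both paralogs, against 306, 335 and 185 CPM in cells with neither. The ligand genes *bmp5*, *bmp6* and *gdf6a* had ratios between -2.65 and -5.96, and *nog2*, an antagonist, had ratios of -2.91, -2.54 and -4.41. The BMP target *id1* had ratios of -0.32, -0.19 and -0.02, and *id3* of 0.71, 0.48 and 1.03, neither of which was called.

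Genes of the dermomyotome were among those that were higher. Of 22 sclerotome and somite genes tested, 7 were higher and 1 was lower, with a median of 0.56. Among all genes the shares were 1.55% higher and 5.9% lower, so a count of 1 lower gene stands out little, whatever the size of its ratio. *meox1*, a somite homeobox gene, had 1829, 1489 and 1354 CPM against 443, 281 and 547 CPM. *pax3a* had ratios of 3.25, 3.34 and 2.19, *pax3b* of 3.32, 3.65 and 1.71, *pax7a* of 1.88, 2.83 and 1.52 and *pax7b* of 3.38, 3.63 and 1.27. These paired-box genes mark the dermomyotome and muscle progenitors. *meox2b* and *hic1*, a gene of mesenchymal progenitors, were the other genes called higher. In other fibroblast-like cells alone *meox2b* had ratios of 4.44, 4.56 and 0.50. *pax9*, a sclerotome gene, was lower, at 0.708, 0.460 and 4.28 CPM against 76.4, 101 and 146 CPM. Members that were not called went both ways. *foxd2* had ratios of 0.999, 2.74 and 1.98, just under the cut in *vegfc* plate 1, and *twist1a* of 1.22, 1.13 and 0.16. *tcf15* had 0.49, 0.66 and 0.31, and *foxd1* had -0.87, -0.67 and -3.12. The list thus gives no single tissue identity for these cells.

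Of the 10 genes tested in the list of possible *engrailed* cofactors, *pbx1a* was higher and *meis2b* lower. *meis2b* reached 20 counts in only 5.14, 9.68 and 6.06% of cells with neither. For this list and those below, the shares among all genes were 1.55% higher and 5.9% lower. A count of 1 lower gene in such a short list therefore stands out little. *pbx1a*, a homeobox cofactor gene, had 468, 625 and 241 CPM in cells with both paralogs, against 81.9, 135 and 68.4 CPM in cells with neither. *pbx4* was at 489, 369 and 353 CPM against 327, 367 and 262 CPM and was not called. Of 20 Wnt genes tested, *apcdd1l*, a relative of a membrane-bound Wnt inhibitor, was higher, with ratios of 4.23, 3.93 and 3.78, and *wnt2*, *sfrp2* and *notum1a* were lower. *wnt2* reached 20 counts in 14.9, 9.68 and 9.96% of cells with neither. *notum1a* had ratios of -2.46, -3.25 and -0.71 in other fibroblast-like cells alone, and reached 20 counts in at most 9.52% of cells with neither on any plate. Of 8 genes of muscle pioneers and slow muscle, *myod1* was lower and none was higher. *myod1* reached 20 counts in only 4.57, 1.94 and 3.90% of cells with neither, so its call rests on few cells. None of 12 cell cycle genes was called, with a median of -0.99 over the list. *top2a*, a topoisomerase gene of dividing cells, had ratios of -1.59 and -2.02 in the *vegfc* plates and 1.21 in the *pdgfra* plate.

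**Figure D3:**
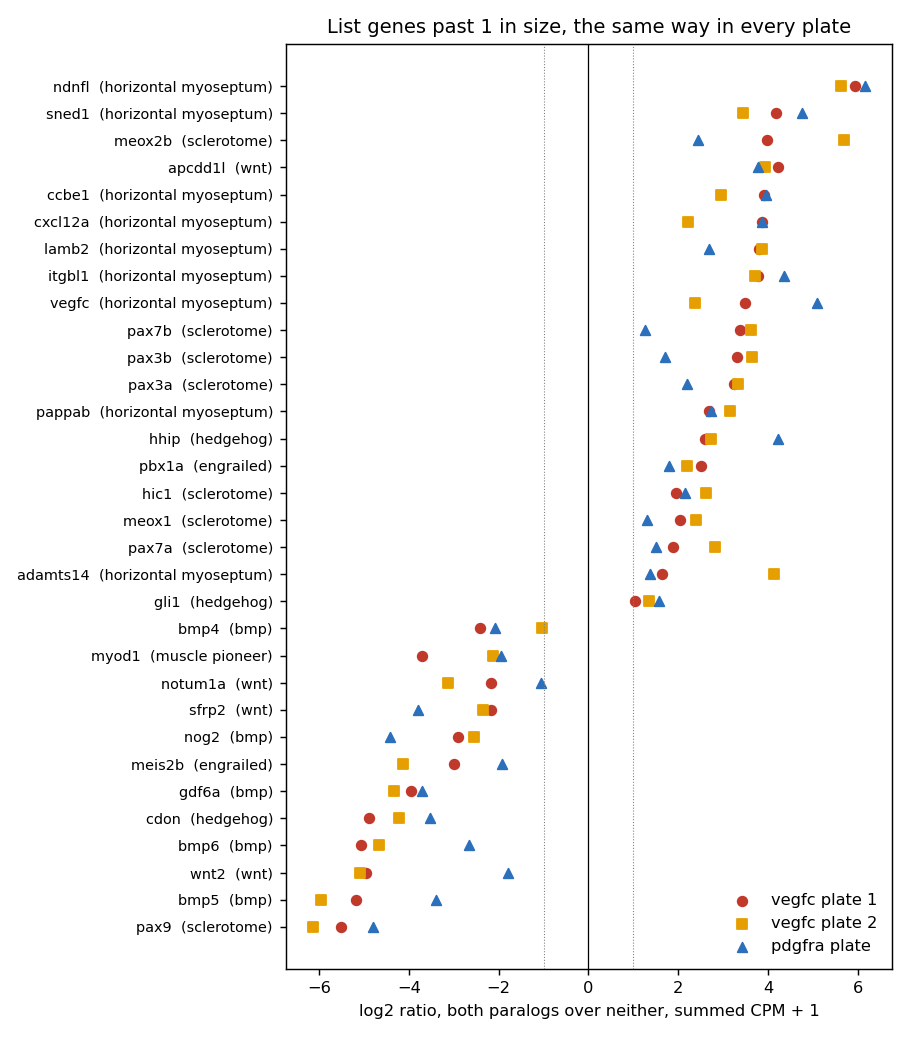
Log2 ratio of summed CPM plus 1, fibroblast-like cells with both paralogs over those with neither (horizontal axis), for every list gene called in all 3 plates (vertical axis, list in brackets), with 1 symbol per plate. *ndnfl* had the highest median ratio, with 5.94, 5.64 and 6.16, and *pax9* the lowest, with -5.50, -6.13 and -4.80.

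The GFP transcript of the reporter gave a readout beside the endogenous gene. Cells of the *vegfc* plates had been sorted for GFP or mCherry, so this readout is not independent of the sort. In *vegfc* plate 1, fibroblast-like cells with both paralogs had a median of 922 counts of GFP (lowest 42, highest 1162), against a median of 63 (21 to 1094) in those with neither. In *vegfc* plate 2 the medians were 942 (7 to 1195) against 21 (0 to 1180). The ranges overlapped in both plates. Over cells of all kinds with neither, the medians were 60.5 and 19, so low GFP counts were not particular to fibroblast-like cells. At least 200 counts, a level chosen after seeing the data, were found in 54 of 59 cells with both and 17 of 175 with neither in *vegfc* plate 1, and in 41 of 55 and 15 of 155 in *vegfc* plate 2. Of the 5 fibroblast-like cells with *en1b* alone in these plates, none reached it.

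*vegfc* and *ccbe1* stayed under 20 counts in every fibroblast-like cell with *en1b* alone. Among other fibroblast-like cells of the *pdgfra* plate, *vegfc* reached 20 counts in 0 of 39 cells with *en1b* alone, which allows a share of up to 7.69% by the same limit (exact 95% interval up to 9.03%), against 18 of 57 cells with both (31.6%, 19.9 to 45.2%). The highest *vegfc* count was 2 in cells with *en1b* alone, against 415 in cells with both. *ccbe1* reached the threshold in 0 of 39 cells with *en1b* alone, with at most 4 counts, against 33 of 57 cells with both (57.9%, 44.1 to 70.9%). In cells with neither, the shares were 0.435% for *vegfc* (0.0110 to 2.40%) and 6.09% for *ccbe1* (3.37 to 10.0%). The median of HM markers at 20 counts was 0 in these 39 cells with *en1b* alone, 1 in the 57 with both and 0 in the 230 with neither. The classes thus differed in HM markers as well as in *en1a*, and which of these *vegfc* and *ccbe1* go with was not tested. The 5 cells with *en1b* alone in the *vegfc* plates had at most 3 counts of either gene. *pdgfra* reached the threshold in 30 of 39 cells with *en1b* alone, 37 of 57 with both and 164 of 230 with neither. Of the 6 other fibroblast-like cells with *en1a* alone, 1 had *vegfc* and 2 had *ccbe1* at the threshold.

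**Figure D4:**
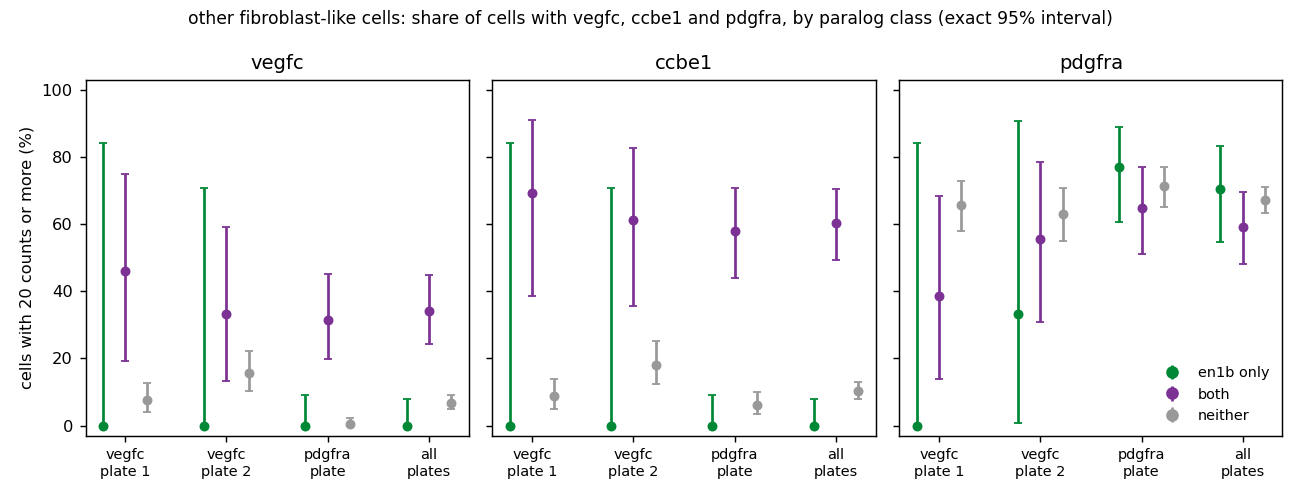
Share of other fibroblast-like cells with at least 20 counts of *vegfc*, *ccbe1* or *pdgfra* (vertical axis, %), by plate and over all plates (horizontal axis), for cells with *en1b* alone, both paralogs or neither; points are shares and bars exact 95% intervals. Over all plates, 0 of 44 cells with *en1b* alone had *vegfc* or *ccbe1*, against 30 and 53 of 88 with both, and the bars of the 2 and 3 cells with *en1b* alone in the *vegfc* plates span most of the axis.

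Further genes set the 39 *pdgfra* plate cells with *en1b* alone beside those with both and those with neither. These genes were ranked by their ratio after the classes had been seen, among genes at 20 counts in at least 30% of cells of either class, and the ratios are a description of a single plate. At a ratio of 1 in size, 2973 of 18527 genes were higher (16%) and 2963 were lower (16%) in cells with *en1b* alone than in cells with both, so single genes at that size stand out little. *hhip* reached 20 counts in 3 of 39 cells with *en1b* alone, against 33 of 57 with both, and *NUAK1*, a kinase gene, in 1 of 39 against 22 of 57. *lamb2*, itself an HM gate marker, did so in 1 of 39 against 19 of 57. All these cells were other fibroblast-like and so had fewer than 3 HM markers. The study also listed *hhip* and *lamb2* as enriched in its cluster that yielded *en1a* and *en1b*, in these same cells. Higher in cells with *en1b* alone than in cells with both were *rgma*, a BMP co-receptor and axon guidance molecule, in 19 of 39 against 6 of 57 cells, and *SLIT3*, a guidance cue, in 16 of 39 against 4 of 57. Of 230 cells with neither, *hhip* reached 20 counts in 21, *NUAK1* in 20, *lamb2* in 12, *rgma* in 25 and *SLIT3* in 89. Cells with *en1b* alone were thus close to cells with neither for *SLIT3* (182 and 194 CPM) and *hhip* (38.9 and 34.4 CPM).

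Other genes were shared by cells with *en1b* alone and cells with both. *fbln7*, a fibulin of the matrix, had 1377 CPM in cells with *en1b* alone and 1058 CPM in cells with both, against 210 CPM in cells with neither. *LRIG1* had 739.5 and 478 CPM, against 139 CPM. *cxcl12a* lay between, at 462 CPM in cells with *en1b* alone and 906 CPM in cells with both, against 57.9 CPM in cells with neither. *mab21l2* reached 20 counts in 0 of 39 cells with *en1b* alone and in 1 of 57 with both, against 81 of 230 with neither. *ZIC2* did so in 0 of 39 and 1 of 57, against 75 of 230.

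Across fibroblast-like cells, 34 genes had a Spearman correlation with the summed *engrailed* level of at least 0.3 in every plate (0.184% of 18527), and 4 had one of -0.3 or below (0.0216%). Correlations are given over 237, 217 and 353 cells as a description. The cells of a plate share its libraries and depth range. *fgl1*, a fibrinogen-like secreted protein gene, led with 0.68, 0.66 and 0.63, followed by *pdgfrl*, a receptor-like protein gene, with 0.64, 0.60 and 0.55, and *itgbl1*, itself a gate marker, with 0.57, 0.51 and 0.53. *fgl1* had 1592, 1606 and 1712 CPM in cells with both paralogs, against 72.2, 64.4 and 382 CPM in cells with neither. Among the 15 highest, *vwde*, *col1a2*, *COL1A1*, *MDK*, *NDNF*, *POSTN* and *col5a1* each had at least 0.43 in every plate. *col1a2* and *col5a1* were fibroblast gate markers. The others were *glula* (glutamine synthetase), *FABP3* (a fatty acid binding protein), *meox1*, *si:dkey-250i3.4* and *si:ch73-366l1.5*.

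The lowest correlations belonged to carboxypeptidase N. The rows *CPN1* and *cpn1* had -0.43, -0.37 and -0.46 and -0.42, -0.36 and -0.47, with nearly the same counts (98260 and 93867 over all cells), so the 2 rows may share reads and are uncertain as separate genes. *RBPJL*, a relative of the Notch effector RBPJ, had -0.40, -0.37 and -0.33. The other gene at -0.3 or below in every plate was ENSDARG00000113774, which has no symbol in the tables used, with -0.37, -0.31 and -0.40. *cdon*, *MATN4*, *HSPA5*, *septin15* and *GLI2*, a Hedgehog effector, followed with values between -0.26 and -0.39 over the plates. *GLI2* had 24.8, 52.2 and 28.7 CPM in cells with both paralogs, against 236, 230 and 167 CPM in cells with neither.

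With counts of either paralog under 20 set to 0, an alternative chosen after the data had been seen, 52 genes passed in the positive and 10 in the negative direction.

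Within the HM fibroblast-like cells alone, few genes followed the level. Over 50, 39 and 24 cells, *foxd2*, a forkhead factor gene, was the only gene at 0.3 or above in every plate (0.0054% of 18527), with 0.33, 0.33 and 0.54. At -0.3 or below were 5 genes (0.027%), *5S_rRNA*, *KLF6*, *FOSB*, *higd1a* and *ldlra*. *KLF6* and *FOSB* are immediate early genes, and *5S_rRNA* belongs to a multicopy family whose reads cannot be placed with certainty. With counts under 20 set to 0 the numbers were again 1 and 5. Correlations of this size in so few cells are weak. *vegfc* had 0.44, 0.22 and -0.02 and *ccbe1* 0.04, -0.11 and 0.19 in these cells. *hhip* had 0.16, 0.44 and 0.13.

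No gene passed the cut for following the *en1a* share in every plate. This does not exclude a relation within a plate: on the *pdgfra* plate *vegfc* and *ccbe1* differed between cells with *en1b* alone and cells with both. Over 62, 62 and 119 fibroblast-like cells with at least 40 counts of the paralogs, 0 of 18527 genes reached a correlation of 0.3 in size, in either direction, in every plate. The highest, named after its values were seen, was *ETS1*, with 0.24, 0.36 and 0.28, and the lowest was *WDR75*, with -0.24, -0.33 and -0.29.

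Over all cells of a plate, the genes most like *en1a* after *en1b* were *fgl1*, *TNC*, *NDNF*, *si:ch73-366l1.5* and *dcn*, whose lowest correlation in any plate was 0.41. Those most like *en1b* after *en1a* were *fgl1*, *pdgfrl*, *vwde*, *FABP3* and *glula*, whose lowest was also 0.41. *fgl1* headed both lists, at 0.61, 0.47 and 0.44 with *en1a* and 0.63, 0.49 and 0.62 with *en1b*. With counts under 20 set to 0 it had 0.61, 0.59 and 0.52 with *en1a* and 0.60, 0.57 and 0.64 with *en1b*. Its place among named genes by the lowest plate, with the other paralog at place 1, was then 3 for *en1a* and 2 for *en1b*. *NDNF* was at place 7 for *en1a* and *FABP3* at place 10 for *en1b* in that setting. *TNC* then had 0.60, 0.58 and 0.38 with *en1a*, and its place among named genes by the lowest plate was 17. This row is ENSDARG00000078362. Another row listed as *TNC*, ENSDARG00000021948, went the other way among other fibroblast-like cells of the *pdgfra* plate. It reached 20 counts in 12 of 57 cells with both paralogs, against 119 of 230 with neither. The study also uses *dcn* as a general fibroblast marker.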

How the data were processed

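Single cells had been sorted into wells and full-length cDNA was amplified and sequenced (Smart-seq2). The authors removed adapters with trim galore, aligned reads to GRCz11 with TopHat2 and Bowtie2, ran a samtools step described as doublet removal, counted them on genes with featureCounts and deposited raw counts per gene and cell, not normalized. The labels' processing notes also name bcl2fastq and Subread. The counting setting for strand is not given in the sources used here, so a gene and its antisense partner cannot be told apart. The table holds 32057 gene rows, 92 spike-ins and 2 reporters, and spike-ins (up to 8.63% of a cell's counts) and reporters were left out of depth. No 2 columns were identical. No doublet caller was run, since each well held a sorted cell.

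Symbols came from an identifier table (28988 identifiers) and, first, from the study's source data (1037), and names in capitals are as listed there. Cell kinds followed marker lists, with ties unassigned. Only genes whose counts summed to 300 or more and that appeared in 3 or more cells (18529) were compared. Cells were described by plate, with shares given exact Clopper-Pearson 95% intervals and a limit of 3 counts for a share of 0. Members, lists and comparisons were chosen with earlier results of these data known. Genes named are the paralogs, the 15 highest and 8 lowest by the weakest plate's correlation with the *engrailed* level, up to 8 each way in HM fibroblast-like cells, the 5 most like each paralog, up to 5 each way for the *en1a* share, and called list members or those with a stated role. Other genes were chosen after their values were seen, as said beside them. List genes not matched to a single identifier, such as *shha*, *gli2a* and *en2a*, were not used here under those names. The code was tested on simulated data. Python 3.11.15 was used with numpy 2.4.6, pandas 2.3.3, scipy 1.17.1 and matplotlib 3.10.9.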

Additional observations from a re-analysis of the deposited data

Results flagged for a closer look

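Between fibroblast-like cells with both paralogs and those with neither, 61 genes had a log2 ratio of at least 1 in both *vegfc* plates and of -1 or below in the *pdgfra* plate, and 161 genes went the opposite way. The difference between the lines was not tested, and with a single *pdgfra* plate line and plate cannot be told apart. *frzb*, a secreted Wnt antagonist, had 80.8 and 206 CPM in cells with both against 3.19 and 7.88 CPM in cells with neither in the *vegfc* plates, but 8.03 CPM against 41.0 CPM among *pdgfra:mCit* cells. Most of the genes with the most opposed ratios were at low levels, such as *DAO*, at 0.283 and 0.460 CPM against 16.1 and 17.4 CPM in the *vegfc* plates and 21.3 CPM against 1.79 CPM among *pdgfra:mCit* cells.

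Of the *pdgfra:mCit* cells, whose line carries mCitrine, 247 of 365 had at least 20 counts on the row named for eGFP, which no comparison above uses for this line. The median there was 72.5 counts in fibroblast-like cells with both paralogs, 78 in those with *en1b* alone and 38 in those with neither, with ranges that overlapped.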

How the results depend on the processing

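No paired test was run, since all results are descriptions without a test. Cells with both paralogs and cells with neither were compared within each plate. The *en1a* share in HM fibroblast-like cells (53.0%) moved beyond the plate SD only with at least 4 of 5 HM markers (54.6%), and lay between 52.0 and 53.7% with each plate left out. In other fibroblast-like cells (45.1%) it was 36.1% as the mean of per-cell shares and 39.7% with at least 2 HM markers, and 43.1 to 50.6% with each plate left out, the highest without the *pdgfra* plate. Cells with *en1a* alone (9) numbered 38 at a threshold of 10 counts, 25 at 50 CPM, 36 after thinning each cell to 50000 gene counts with a threshold of 3, 1 with the other paralog at 0 and 4 to 8 with each plate left out, the lowest without *vegfc* plate 2. Cells with *en1b* alone (49) numbered 76 at 10 counts, 89 after thinning, 7 with the other paralog at 0, and 10 to 46 with each plate left out, the lowest without the *pdgfra* plate. At 40 counts the numbers were again 9 and 49. Thresholds of 10 counts, 50 CPM or 3 thinned counts reach into the low counts that moved with well position.

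Genes higher with both paralogs (287) numbered 2499 against reference cells with 0 of both, and 451 to 666 with each plate left out. Genes lower (1094) numbered 497 with a pseudocount of 5 CPM, 89 against cells with 0 of both, and 1717 to 2786 with each plate left out. Against that reference more genes were thus higher than lower, the opposite of the balance against cells with neither. Only 2, 12 and 1 cells had 0 of both, so that reference is thin, and with a plate left out a gene had to pass in 2 plates only. Genes following the *engrailed* level (38) numbered 79 by Pearson correlation of log2(CPM + 1), 62 with counts under 20 set to 0, and 47 to 86 with each plate left out, the highest without the *pdgfra* plate.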
